A study of Mus musculus with 12 samples.

Results

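The genes described here are the receptors for somatostatin, Sstr1, Sstr2, Sstr3, Sstr4 and Sstr5, and 4 receptors for the neuropeptide Y family of peptides, Npy1r, Npy2r, Npy4r and Npy5r. They were taken by name, and all 9 were found among the 45808 genes of the bulk table and among the 31055 genes of the single-cell matrices. Somatostatin, which islet δ-cells release, binds the Sstr receptors. These couple to inhibitory G proteins, lower cAMP, open inwardly rectifying potassium channels and restrain hormone secretion from neighbouring cells. Neuropeptide Y, peptide YY and pancreatic polypeptide bind the Npy receptors, which couple to the same kind of G protein. Pancreatic polypeptide, the hormone of γ-cells, has Npy4r as its preferred receptor.

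The measured cells were islet cells of mice aged 2 months on a mixed background. For bulk RNA-seq, YFP+ cells were sorted from Ppy-rtTA;TetO-Cre;R26-YFP mice (5 γ-cell libraries) and from Sst-Cre;R26-YFP mice (3 δ-cell libraries). The labels state doxycycline (DOX) at 1 mg/ml in the drinking water for both genotypes, in the month before collection. In the first genotype DOX labels cells in which the Ppy locus drives rtTA, and this knock-in takes the place of 1 Ppy allele. In the second, Cre from the Sst locus labels any cell that expressed it at any time, with no need for DOX. For single-cell RNA-seq, the YFP+ and YFP- fractions of DOX-treated Ppy-rtTA mice with the R26-YFP reporter were loaded apart in each of 2 experiments, each on pooled mice. Nothing in the labels says which bulk libraries came from separate mice, so that p-values measure the spread between these libraries, which may be technical. The γ- and δ-cell libraries also differ in sequencing, since the former were read as read pairs and the latter as single reads on another instrument. Cell type and sequencing run therefore cannot be told apart.

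The bulk libraries held 14633838 to 31784878 counted reads in the γ group and 7641916 to 11773598 in the δ group. The 4 single-cell libraries held 10683494 to 18330975 UMIs (unique molecular identifiers, 1 per captured transcript) over 5982 cells, and pairs of libraries shared 1 to 6 cell barcodes. After removal of 127 putative doublets and of 1361 cells in 7 clusters led by markers of other cell types, 3820 cells fell into 7 hormone classes. The monohormonal classes comprised 1193 Ppy+, 590 Gcg+, 524 Ins2+ and 244 Sst+ cells. The bihormonal classes comprised 756 cells with Ppy and Gcg, 395 with Ppy and Sst and 118 with Ppy and Ins2. Of the Ppy+ cells 1188 came from YFP+ libraries, while all Gcg+ and Sst+ cells and 523 of the Ins2+ cells came from YFP- libraries, so that class and library cannot be told apart in comparisons of Ppy+ cells with the others.

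All 9 genes encode receptors with 7 membrane-spanning helices. They can be set side by side in the coding sequence at the end of the seventh helix. There, receptors of this class carry a motif of asparagine, proline, any pair of residues and tyrosine. These stretches are shown because reads from related genes could in principle be assigned to the wrong gene. Each is 27 bases of GRCm38.p6 read along the coding strand, with the 5 codons of the motif in capitals.
Sstr1 (chr12:58213541-58213567, + strand): tgtgccAACCCCATCCTCTACggcttc
Sstr2 (chr11:113625172-113625198, + strand): tgcgccAACCCCATCCTGTACgccttc
Sstr3 (chr15:78539574-78539600, - strand): tgcgcaAACCCCATCCTCTACggcttc
Sstr4 (chr2:148396374-148396400, + strand): tgtgccAATCCCATTCTCTATggcttc
Sstr5 (chr17:25491339-25491365, - strand): tgtgccAACCCCCTGCTCTATggcttt
Npy1r (chr8:66704976-66705002, + strand): tgcgtcAACCCCATCTTTTATggattc
Npy2r (chr3:82540486-82540512, - strand): tttgccAACCCCCTTCTCTATggttgg
Npy4r (chr14:34146358-34146384, - strand): tgtgtcAACCCTTTCATCTATggcttt
Npy5r (chr8:66680799-66680825, - strand): tgtcttAATCCGATCTTATATggattc

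Within this stretch, pairs of Sstr genes shared 20 to 25 of the 27 bases, pairs of Npy receptor genes 14 to 21, and pairs from different families 16 to 22. Over longer distances the genes were distinct. None of the 9 had a window of 100 bases in its annotated transcripts (1325 to 4219 windows per gene) that also occurred in a transcript of another gene, so that reads of that length could be told apart. Npy1r and Npy5r are neighbours on chromosome 8, at 66697192-66706792 and 66679965-66688128, on opposite strands and without overlap. Sstr3 lies on chromosome 15 at 78537008-78544685. Sstr2 lies on chromosome 11 at 113619342-113626028 inside an intron of Slc39a11, a zinc transporter gene on the opposite strand, with no shared exon bases. The bulk library kits (SMARTer Ultra Low and Nextera XT) do not mark strand, so that reads of unspliced Slc39a11 transcripts there cannot be told apart from those of Sstr2. The strand setting of the counting is not given in the sources used here.

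Of the 9 receptors, Sstr3 and Sstr2 held nearly all reads in bulk. Levels are given as CPM, which are counts divided by the total of their library in units of 1e6, and, wherever genes are compared with each other, per kilobase of exon as well (RPKM). The summed RPKM of the 5 somatostatin receptors made up between 99.26 and 99.95% of that of all 9 receptors in each library. Per length, the γ-cell libraries held Sstr3 at 36.9 RPKM ± 4.47 (SD, n = 5), Sstr2 at 6.15 ± 0.86 and Sstr1 at 0.476 ± 0.28. The δ-cell libraries showed the same order, with Sstr3 at 18.5 RPKM ± 4.22 (SD, n = 3), Sstr2 at 2.43 ± 0.238 and Sstr1 at 0.439 ± 0.0225. These 3 neighbours in the order did not overlap in any library. The Sstr3 RPKM was 5.40 to 6.76 times that of Sstr2 in the γ group, and 5.11, 9.07 and 9.15 times in the δ group.

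**Figure D1:**
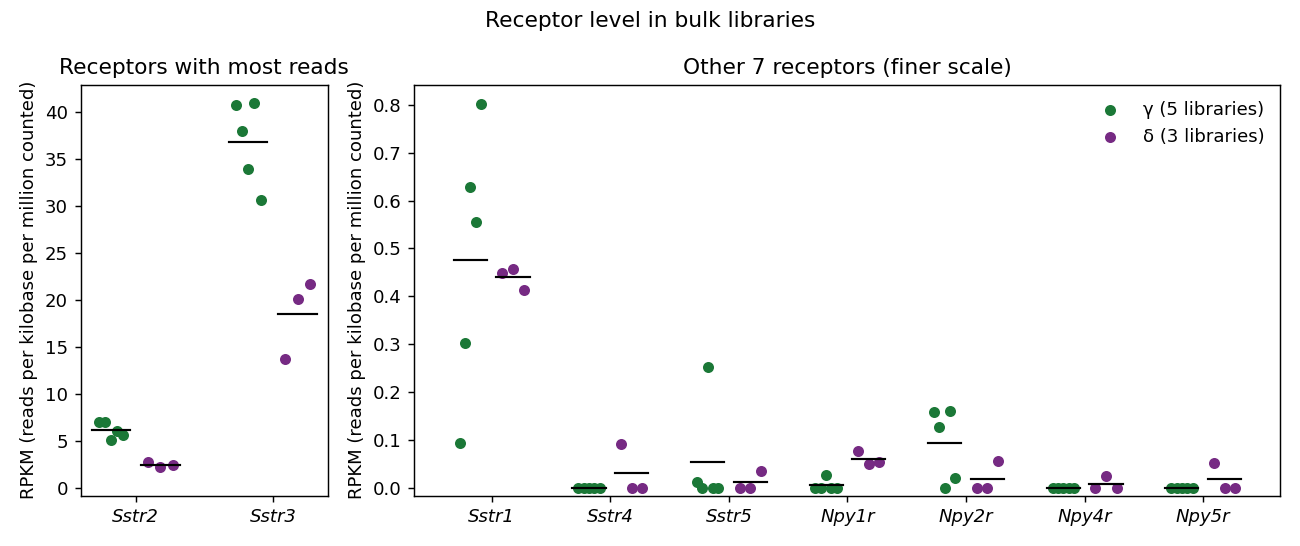
Each point is 1 bulk library (γ green, δ purple), the line is the group mean, and the y axis is RPKM on separate scales for Sstr2 and Sstr3 (left) and for the other 7 receptors (right). Sstr3 sits at 30.7 to 41.0 RPKM in γ-cell and 13.7 to 21.7 in δ-cell libraries, and no value on the right exceeds 0.802.

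Sstr3, the receptor with the highest level, stood at 176, 164, 147, 177 and 132 CPM in γ-cell libraries 1 to 5. In δ-cell libraries 1 to 3 it stood at 59.3, 87.0 and 93.7 CPM. All 5 γ-cell values were above all 3 δ-cell values. Sstr2, the second in level, stood at 15.01, 15.1, 10.9, 13.0 and 12.0 CPM in the γ-cell libraries and at 5.76, 4.76 and 5.08 CPM in the δ-cell libraries. Here again the groups did not overlap. Npy1r did not overlap either, with δ above γ, on 2 reads in each δ-cell library. The share of all genes without overlap was not counted, so that these statements only describe the values.

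The comparison of γ- with δ-cell libraries asks which receptors mark Ppy-expressing cells against the cells that make somatostatin itself. In edgeR's quasi-likelihood test after TMM scaling, over 17926 genes with a mean of at least 5 counts per library, Sstr2 rose in γ-cells by a log2 fold change of 1.62 ± 0.21 (SE; 3.08-fold, Benjamini-Hochberg adjusted p = 0.000105). Sstr3 rose by 1.26 ± 0.17 (SE; 2.39-fold, adjusted p = 0.000142, edgeR). Calls needed an adjusted p no higher than 0.05 together with at least 1 unit of log2 fold change. By this rule 35.0% of all genes tested were called, 3715 higher and 2553 lower in γ-cells, so that 2 called receptors of 4 tested stand near the background. With upper-quartile normalization, under which the median gene moved from -0.06 to -0.36 on the log2 scale, the Sstr3 value was 0.97 (adjusted p = 0.000352, edgeR), just under the fold threshold. All genes called then split into 3055 higher and 3746 lower, and into 3803 higher and 3787 lower with no filter on low counts. Slc39a11 differed less than Sstr2, at 61.7 CPM (median of 5) in the γ and 50.8 CPM (median of 3) in the δ group (log2 fold change 0.60, adjusted p = 0.00336, edgeR).

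Markers of other cell types also differed between the groups. A list of 7 α-cell markers (Gcg among them) summed to 45700 to 85840 CPM in the γ group and to 1627 to 6941 CPM in the δ group, with none of the 7 at 0 throughout. A list of 16 acinar markers summed to 2347 to 13660 CPM in the γ and 25090 to 108000 CPM in the δ group, also with none at 0. A list of 23 ductal markers, 1 of them at 0 throughout, summed to 2349 to 2867 CPM in the γ and 4750 to 9389 CPM in the δ group. A list of 9 β-cell markers summed to 9903 to 21660 and 4209 to 5423 CPM, and a list of 10 glial markers to 107 to 125 and 151 to 288 CPM, with none at 0. The sums of the stromal, endothelial, myeloid, lymphoid and cycling lists overlapped between the groups. The δ list of 6 markers summed to 7803 to 12340 CPM in the γ and to 71180 to 103300 CPM in the δ group, and the γ list of 5 to 164100 to 203900 and 25960 to 39120 CPM. Gcg alone gave 43970 to 83710 CPM of the α sum in the γ and 1557 to 6696 CPM in the δ group. The β, δ and γ lists hold hormone genes as well. Among single cells, the YFP+ fraction held 667 Ppy+Gcg+ cells and none of the monohormonal Gcg+ class. Whether Gcg in the bulk γ group came from such bihormonal cells or from α-cells was not tested. The part of other cell types in the Sstr2 and Sstr3 differences was not tested either. In bulk samples fewer cells of a type and less RNA per cell cannot be told apart.

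Sstr1, a further somatostatin receptor, was detected in every bulk library at a low level. It stood at 0.189, 0.620, 1.28, 1.13 and 1.64 CPM in the γ-cell libraries, from 6 to 28 reads each, and at 0.916, 0.934 and 0.847 CPM in the δ-cell libraries, from 7 to 11 reads each. The γ values lay on both sides of the δ values. The log2 fold change was 0.37 ± 0.69 (SE; adjusted p = 0.677, edgeR), with a 95% interval from -1.33 to 2.07.

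Sstr4 and Sstr5 were at or near 0. Sstr4 had no read in the γ group, where 3 reads over all 5 libraries, the limit that a count of 0 allows, correspond to 0.027 CPM, and it had 1 read in the δ group. Sstr5 had 0 reads in γ-cell libraries 2, 4 and 5, 1 read in library 1 and 15 reads in library 3, and 1 read over the δ group. Its γ value thus rests on a single library.

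The Npy receptors were also at low levels. Npy2r, a receptor for peptide YY and neuropeptide Y, stood at 0.535, 0.429, 0, 0.544 and 0.0683 CPM in the γ-cell libraries, or 17, 9, 0, 12 and 1 reads. In the δ group it had 0, 0 and 2 reads. Its log2 fold change of 2.44 ± 1.47 (SE) had an adjusted p of 0.188 (edgeR), with an interval from -1.16 to 6.03, and it was the only Npy receptor with enough counts to be tested. Npy1r had 2 reads in each δ-cell library (0.170 to 0.262 CPM) and 2 reads in γ-cell library 3 alone. Npy4r and Npy5r had 0 reads over the γ group, which allows up to 0.027 CPM, and 1 read each over the δ group. The 5 receptors that did not pass the count minimum were thus Sstr4, Sstr5, Npy1r, Npy4r and Npy5r. Npy6r, a relative of these receptors on the list of pathway genes, had no read in any of the 8 libraries.

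Single cells gave the levels of these receptors in each hormone class. Over all 5982 cells there were 1459 UMIs of Sstr3, 162 of Sstr2, 27 of Npy1r, 19 of Sstr1 and 1 of Sstr5. Sstr4, Npy2r, Npy4r and Npy5r had 0 of 52244071 UMIs, which allows up to 0.0574 CPM of all UMIs (counting error alone). The 10x assay reads 3' ends, so that a transcript gives UMIs near its annotated end, and levels of different genes are not compared here.

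The classes differ in how much of their RNA is hormone mRNA, which sets the scale of a CPM. Transcripts of 7 islet hormone genes took 70.6 and 74.9% of the UMIs of Ins2+ sums, 53.8 and 54.7% in Ppy+ sums, 33.7 and 33.8% in Gcg+ sums and 22.9 and 30.6% in Sst+ sums. Levels are therefore given both as CPM of all UMIs and after TMM scaling, which sets the bulk of genes at equal levels. The tests used the latter, on UMIs summed per class and experiment (14 sums, experiment as covariate, 10327 genes). Calls were made at an adjusted p no higher than 0.05 where the natural log fold change passed 0.5 (0.721 on the log2 scale). The 7 classes of an experiment come from the same pooled mice. The single-cell p-values thus rest on 2 experiments and not on separate mice.

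Sstr3 was present in each hormone class. After TMM scaling, its values in experiments 1 and 2 were 26.8 and 39.4 CPM in Ppy+ cells, and 25.3 and 35.9 CPM in Gcg+ cells. In Ins2+ cells they were 39.95 and 41.8 CPM. In Sst+ cells, which make its ligand, they were 36.5 and 61.5 CPM. Experiment 2 was above experiment 1 in every class, so the classes are compared within each experiment. In both, Sst+ and Ins2+ cells were above Ppy+ cells, and Ppy+ cells were above Gcg+ cells. The order of Sst+ and Ins2+ cells changed between the experiments.

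Before scaling the order was another one. As CPM of all UMIs, Sstr3 stood at 21.9 and 32.0 in Ppy+, 27.6 and 41.6 in Gcg+, 20.3 and 26.7 in Ins2+ and 52.3 and 99.2 in Sst+ cells. Ins2+ cells were thus the lowest by CPM of all UMIs, and above Ppy+ and Gcg+ cells after TMM scaling. Sst+ cells had the highest mean on both scales.

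In none of the 6 monohormonal comparisons was Sstr3 called. The nearest was Sst+ against Gcg+ cells, with a scaled log2 fold change of 0.66 ± 0.23 (SE; adjusted p = 0.0476, edgeR), under the fold threshold. Sst+ against Ppy+ cells gave 0.55 ± 0.22 (SE; adjusted p = 0.0954, edgeR), with a 95% interval from 0.01 to 1.09. Ins2+ against Ppy+ cells gave 0.45 ± 0.16 (SE; adjusted p = 0.0277), and Gcg+ against Ins2+ cells -0.56 ± 0.17 (SE; adjusted p = 0.0115), both by edgeR and both under the fold threshold. Without experiment 1 these values were 0.08 and -0.22, with no test. Gcg+ against Ppy+ cells gave -0.11 ± 0.17 (interval -0.52 to 0.30), and Sst+ against Ins2+ cells 0.10 ± 0.22 (interval -0.44 to 0.64).

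The Sstr3 values of bulk and single cells stood in opposite order. In bulk the γ-cell libraries were 2.39-fold above the δ-cell libraries, while the single Sst+ cells were 1.46-fold above Ppy+ cells after TMM scaling, a difference that was not called. The bulk libraries came from other sorts and another assay, and their δ group carried the acinar markers given above. That group also held Ppy at 10890 to 16500 CPM. The bulk γ group was sorted by YFP alone and so was not limited to monohormonal cells. Among single cells, the YFP+ libraries held 1188 cells of the Ppy+ class. Beside these, Ppy was joined by Gcg in 667 cells, by Sst in 256 and by Ins2 in 106. The part of each of these differences in the opposite order was not tested. The bulk and single-cell values were not tested against each other.

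**Figure D2:**
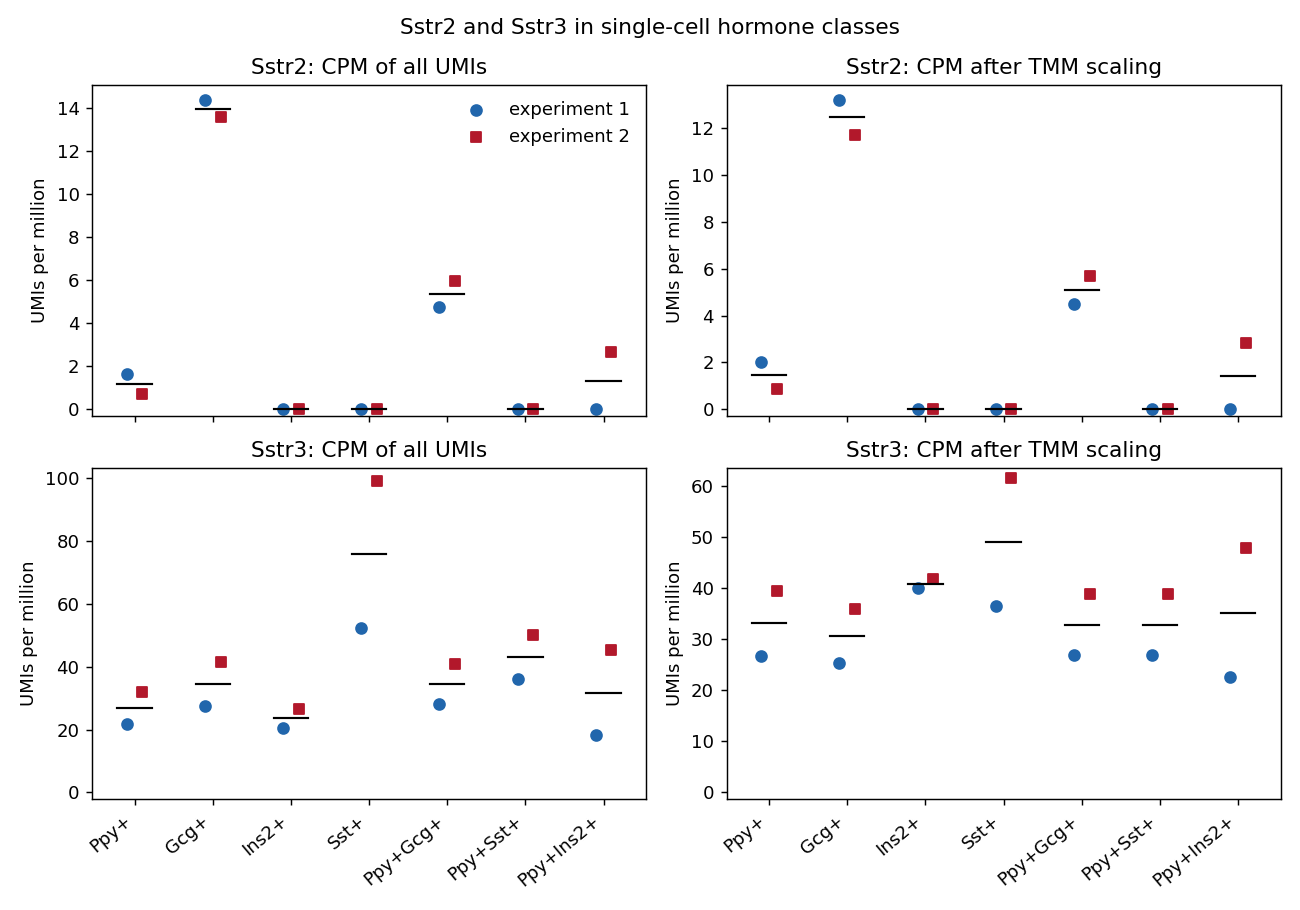
Points are levels in each hormone class (x axis) in experiment 1 (blue circles) and experiment 2 (red squares), the line is their mean, and columns show CPM of all UMIs (left) and after TMM scaling (right). Sstr2 (top) is highest in Gcg+ cells and lies at 0 in Ins2+, Sst+ and Ppy+Sst+ cells, whereas Sstr3 (bottom) is present in each class.

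Sstr2 differed between the classes. It stood at 13.2 and 11.7 scaled CPM in Gcg+ cells, from 38 and 32 UMIs, against 2.00 and 0.882 in Ppy+ cells, from 8 and 3 UMIs. In Ins2+ cells there was no Sstr2 UMI among 11596756, which allows up to 0.494 scaled CPM, and in Sst+ cells none among 907243, which allows up to 2.20. Gcg+ cells were thus above every other monohormonal class in both experiments.

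Against Ppy+ cells, Sstr2 rose in Gcg+ cells by a log2 fold change of 3.03 ± 0.45 (SE; 8.15-fold, adjusted p = 3.43e-06, edgeR), where 13.1% of all genes tested were called. For a class at 0, the fold is the pooled level of the other class over the limit from 3 UMIs in both sums. Such folds leave out the counting error of the other class and are no lower bounds. The adjusted p-values beside them belong to the edgeR fold changes between the classes, not to these ratios. Sstr2 in Gcg+ cells was 25.3-fold the limit of Ins2+ cells (adjusted p = 2.15e-08, edgeR, with 22.4% of genes called). It was 5.68-fold the limit of Sst+ cells (adjusted p = 0.000437, edgeR, with 12.1% called). Sstr2 in Ppy+ cells, on 11 UMIs, was 3.02-fold the limit of Ins2+ cells (adjusted p = 0.00918, edgeR, with 26.8% called). This call was lost with DESeq2 (adjusted p = 0.0545). The Ins2+ limit rests mostly on experiment 1, with 10322137 UMIs against 1274619 in experiment 2. The Poisson interval of Ppy+ cells began at 0.742 scaled CPM, and that of Ins2+ cells reached 0.608. Ppy+ and Sst+ cells were not called different (adjusted p = 0.278, edgeR; 12.3% called), and no fold is given between Sst+ and Ins2+ cells, both at 0 (15.4% called). Of 12 comparisons of the 2 tested receptors between monohormonal classes, 4 were called, all of them for Sstr2.

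Since Gcg+ cells came from YFP- and Ppy+ cells from YFP+ libraries, the Sstr2 difference was also fitted on sums per library with the library as a block, where the 2 classes are linked through the bihormonal cells. The log2 fold change was then 1.89 ± 0.79 (SE; adjusted p = 0.201, edgeR), and the call was lost. Calls over all genes fell as well, from 1349 of 10327 to 358 of 9072. Genes of Paneth cell defensins led the cluster of the Gcg+ cells by fold, but made up at most 0.00836% of the UMIs of a Gcg+ sum.

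In bihormonal cells, the question is whether a second hormone comes with a change in receptors against Ppy+ cells. Ppy+Gcg+ cells held Sstr2 at 4.51 and 5.67 scaled CPM, from 18 and 20 UMIs, above both Ppy+ values and below both Gcg+ values. Against Ppy+ cells Sstr2 rose by a log2 fold change of 1.74 ± 0.52 (SE; 3.33-fold, adjusted p = 0.0381, edgeR), where 3.21% of genes were called. Without experiment 1 the value was 2.60, and without experiment 2 it was 1.16. The call was lost with the library as a block (1.53, adjusted p = 0.0868), without a block (1.75, adjusted p = 0.266) and with DESeq2 (1.78, adjusted p = 0.377). Doublet removal took 11 and 2 cells from the YFP+ libraries of experiments 1 and 2. These libraries held 667 of the 756 Ppy+Gcg+ cells. The part of remaining doublets of Gcg+ and Ppy+ cells in this Sstr2 level was not tested.

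Ppy+Gcg+ cells occurred in both fractions and in several clusters, which allows a view within the class. By CPM of all UMIs, Sstr2 stood at 4.59 (95% Poisson interval 3.07 to 6.59) in the 667 YFP+ cells and at 10.99 (5.03 to 20.9) in the 89 YFP- cells. In those of the cluster with both hormones high it was 6.55 (4.24 to 9.67) and in those of the Gcg cluster 6.95 (3.00 to 13.7). In those of the larger Ppy cluster it was 1.42 (0.172 to 5.13) and in those of the smaller one, led by Ghrl, 3.30 (0.400 to 11.9). These intervals cover counting error alone, and the parts were not tested against each other.

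Ppy+Sst+ cells had no Sstr2 UMI among 2199954, which allows up to 1.04 scaled CPM, against 11 UMIs in Ppy+ cells (adjusted p = 0.118, edgeR; 7.96% of genes called). Ppy+Ins2+ cells had 1 UMI in all (adjusted p = 0.832, edgeR; 7.31% called). After TMM scaling, Sstr3 was near the Ppy+ level in each of the 3 bihormonal classes. As CPM of all UMIs its mean over both experiments was 26.97 in Ppy+ cells. It was 34.55 in Ppy+Gcg+, 43.09 in Ppy+Sst+ and 31.73 in Ppy+Ins2+ cells. The scaled Sstr3 values were 26.8 and 38.9 CPM in the cells with Gcg and the same to that precision in those with Sst. In those with Ins2 they were 22.6 and 47.7 CPM. The log2 fold changes against Ppy+ cells were -0.01 (95% interval -0.39 to 0.37), -0.01 (-0.48 to 0.46) and -0.02 (-0.67 to 0.63), all with adjusted p of 0.988 or more (edgeR).

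**Figure D3:**
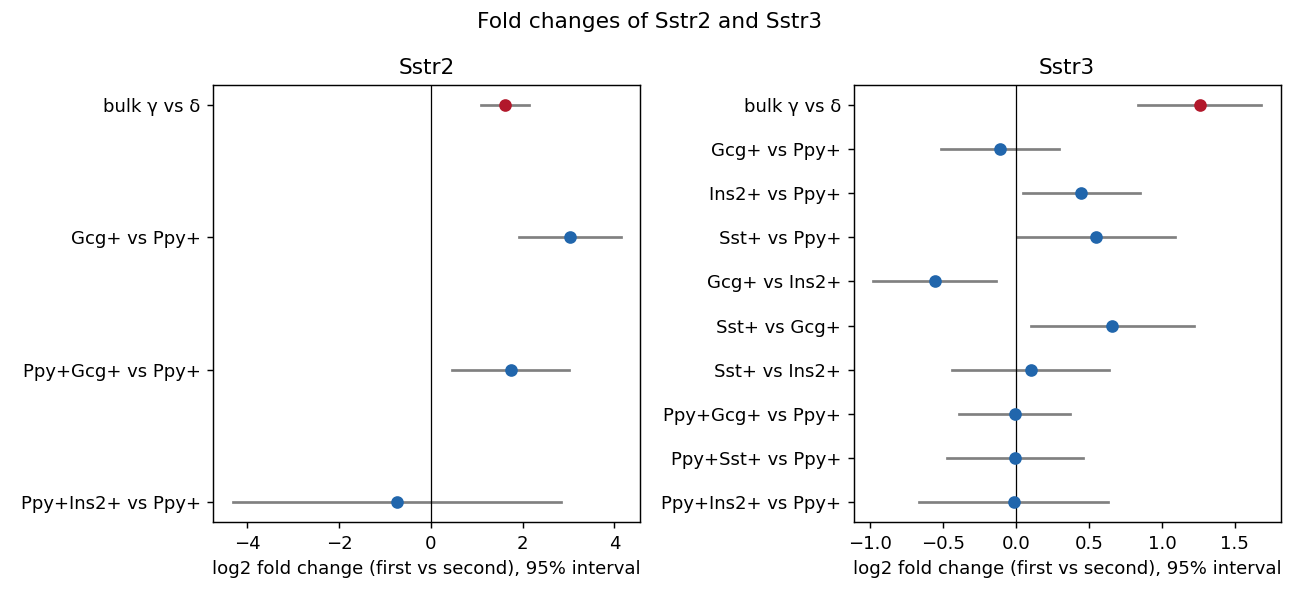
Points are log2 fold changes of the first against the second group for Sstr2 (left) and Sstr3 (right), bulk in red and single-cell sums in blue, with 95% intervals as lines; Sstr2 comparisons with a class at 0 are left out. For Sstr2, bulk γ against δ, Gcg+ against Ppy+ and Ppy+Gcg+ against Ppy+ lie above 0. For Sstr3 the bulk difference, γ against δ (1.26), is larger in size than every single-cell one. Sst+ against Ppy+ cells (0.55) is drawn the other way round than bulk, so that these points on the same side of 0 stand for opposite orders.

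Few single cells showed both receptors. Among the 590 Gcg+ cells, 60 had an Sstr2 UMI, 139 an Sstr3 UMI and 17 both. Sstr3 UMIs occurred there in 28.3% of the cells with an Sstr2 UMI and in 23.0% of the others. In Ppy+Gcg+ cells these shares were 52.8% (19 of 36 cells) and 22.9%, and in Ppy+ cells 45.5% (5 of 11 cells) and 16.9%. Cells with more UMIs show more of both genes, and depth was not matched here. The share of cells with an Sstr3 UMI was 17.2% in Ppy+ cells (median 6882 UMIs per cell), 23.6% in Gcg+ cells (7356.5), 35.7% in Ins2+ cells (22575.5) and 22.5% in Sst+ cells (3769.5). Thinned to 1000 UMIs per cell, these shares were 2.85, 3.56, 2.67 and 6.15%. In stromal-like cells (median 2524.5 UMIs), none of 254 had an Sstr3 UMI.

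The receptors with few UMIs were spread thinly. Sstr1 had 11 UMIs in the 7 classes, of which 4 were in Sst+ cells of experiment 1 (7.22 CPM of all UMIs, 95% Poisson interval from 1.97) and none in Sst+ cells of experiment 2. Npy1r also had 11 UMIs in the classes, 5 of them in Gcg+ cells, from 2 and 3 in the experiments (0.999 CPM of all UMIs, 0.325 to 2.33). Neither gene passed the filter on low counts. Of the 9 receptors, 2 were tested in single cells and 4 in bulk.

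The genes whose level over the 14 sums was most like that of Sstr2 were Wnk3 (Pearson r of log2 CPM 0.929), Rps10 (0.928) and Rps21 (0.924), out of 10326 compared. Those most like Sstr3 were Zhx3 (0.881), Tug1 (0.868) and Scand1 (0.855). The 14 points share libraries and experiments, and these values are a description.

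The levels of the peptide ligands differed between the classes, and Pyy and Npy were found in more than 1 of them. Ppy and Pyy, encoding pancreatic polypeptide and peptide YY, stood at 268500 and 270200 CPM of all UMIs in Ppy+ cells. Pyy was also at 38020 CPM in Sst+ and 7211 CPM in Gcg+ cells. Sst, encoding somatostatin, stood at 187700 CPM in Sst+ cells. Sst and Ppy define the classes, so that their levels there are no finding. Npy, encoding neuropeptide Y, had 64 UMIs in Sst+ cells (102.8 and 19.8 CPM of all UMIs in experiments 1 and 2) and 232 in Ins2+ cells (18.1 and 35.3 CPM). These UMIs lay in 10 Sst+ and 19 Ins2+ cells. Ppy+ cells had none among 9068877, and Gcg+ cells had 1. Against Ppy+ cells Npy was called higher in both Sst+ (adjusted p = 1.95e-10) and Ins2+ cells (adjusted p = 4.3e-12, edgeR).

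In bulk, Ppy and Pyy rose in γ-cells by log2 fold changes of 3.20 ± 0.29 and 2.37 ± 0.26 (SE; edgeR), and Sst fell by 2.99 on that scale. The groups were sorted by labels that the Ppy and Sst loci drive, so that the differences of Ppy and Sst are no finding. Cort, encoding the somatostatin relative cortistatin, stood at 0.620 to 1.79 CPM in the γ and 0.262 to 0.595 CPM in the δ group and rose by 2.10 ± 0.61 (SE; adjusted p = 0.0146, edgeR), a call that was lost without δ-cell library 1 (adjusted p = 0.0508) or 3 (adjusted p = 0.0606). Npy was not called, at 0 to 2.20 CPM in the γ and 0.170 to 1.70 CPM in the δ group (log2 fold change 0.48, adjusted p = 0.75, edgeR). In single cells Dpp4, the protease that trims peptide YY and neuropeptide Y, rose against Ppy+ cells in Gcg+ (1.17 on the log2 scale), Ins2+ (1.35) and Sst+ cells (1.54), each called by edgeR.

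Behind the receptors, a list of 46 pathway genes covered ligands, inhibitory G protein α subunits, potassium channels, adenylyl cyclases, receptor kinases, arrestins and RGS proteins, which shorten G protein signals. In bulk, 43 were tested, of which 13 rose and 6 fell in γ-cells (44.2%, against 35.0% of all genes), with a median log2 fold change of 0.22 against -0.06 for all genes tested. These counts include Ppy and Sst, whose loci drive the labels by which the groups were sorted, so that their calls were fixed by the choice of cells. Gnai1, an inhibitory α subunit, changed most, from 4.42 to 6.67 CPM in the δ group to 74.1 to 105 CPM in the γ group (log2 fold change 4.37 ± 0.19, SE; adjusted p = 4.07e-08, edgeR). Its relative Gnai2 rose by 2.15 ± 0.13. Of the cAMP-producing enzymes, Adcy1 rose by 3.68 ± 0.82 and Adcy3 by 2.69 ± 0.24. In single cells Adcy1 had 45 UMIs in Gcg+, 8 in Ppy+Gcg+, 3 in Ppy+Sst+ and 1 each in Ppy+, Sst+ and Ppy+Ins2+ cells. There it was not called in Sst+ against Ppy+ cells (adjusted p = 0.607, edgeR). The part of cells with Gcg in the bulk Adcy1 value was not tested. Arrb2, an arrestin that ends receptor signalling, rose by 2.98 ± 0.18, and Rgs7 by 2.52 ± 0.20. Single Sst+ against Ppy+ cells gave the opposite direction for Gnai2 (0.61, adjusted p = 0.00405, edgeR, under the fold threshold) and Rgs7 (0.44, adjusted p = 0.445, edgeR). The bulk direction was kept, without a call, for Gnai1 (-1.84, adjusted p = 0.118), Adcy3 (-1.34, adjusted p = 0.324) and Arrb2 (-1.20, adjusted p = 0.244), all by edgeR.

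In single cells, 31 genes of the list were tested. Ppy and Sst are on the list and define the classes, so that part of each count against or in Ppy+ or Sst+ cells is fixed by the choice of cells. Class and library cannot be told apart in the comparisons with Ppy+ cells. With the library as a block, calls over all genes against Ppy+ cells fell from 1349 of 10327 to 358 of 9072 for Gcg+ cells. For Ins2+ cells they fell from 2766 to 1409, and for Sst+ cells from 1266 to 452. The list was not counted in that fit. In Gcg+ against Ppy+ cells, 8 were called higher and 4 lower (38.7%, against 13.1% of all genes tested), with Rgs16 at 1.76 ± 0.45 (SE) and Gnai1 at 1.62 ± 0.27 on the log2 scale. Adcy1 was called as well, with 45 UMIs in Gcg+ and 1 in Ppy+ cells. In Ins2+ against Ppy+ cells, 7 were higher and 11 lower (58.1%, against 26.8%), among them Rgs16 (3.04 ± 0.38) and, with 3 against 40 UMIs, the potassium channel subunit Kcnj3. In Sst+ against Ppy+ cells, 11 were higher and 2 lower (41.9%, against 12.3%), and Adcy2, which was called, rested on 7 against 3 UMIs. Gcg+ cells had 9 higher and 5 lower against Ins2+ cells (45.2%, against 22.4% of all genes), with Rgs4 at 3.35 ± 0.22. Sst+ cells had 7 higher and 5 lower against Gcg+ cells (38.7%, against 12.1% of all genes), with Gnai1 lower on 3 against 143 UMIs. They had 10 higher and 1 lower against Ins2+ cells (35.5%, against 15.4% of all genes), with Rgs9 at 3.33 ± 0.26. The median log2 fold changes of the list in these 6 comparisons ran from 0.13 to 0.44, where those of all genes tested lay between -0.03 and 0.02.

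Among bihormonal cells, the list had 3 genes higher and 2 lower in Ppy+Gcg+ cells, 7 higher and 2 lower in Ppy+Sst+ cells and 3 higher and 4 lower in Ppy+Ins2+ cells, each against Ppy+ cells. These were 16.1, 29.0 and 22.6% of the list, where 3.21, 7.96 and 7.31% of all genes tested were called. Ppy and Pyy were among the lower genes in each, and Sst among the higher in Ppy+Sst+ cells, as the choice of cells fixes for Sst. All these classes passed the same Ppy threshold. Monohormonal Ppy+ cells also had to lie in a cluster with Ppy alone high, so that the choice of cells may have shaped the Ppy values. In Ppy+Gcg+ cells, Gnai1 (1.199 ± 0.27, SE), Gnao1 (0.80 ± 0.12) and Dpp4 (1.36 ± 0.29) rose, as Sstr2 did. All 3 were also called higher in Gcg+ than in Ppy+ cells, at 1.62, 1.24 and 1.17, a comparison that shares the Ppy+ cells.

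Upstream of the Sstr2 start, the 250 bases of GRCm38.p6 before the RefSeq start site are shown. Sstr2 was chosen as the receptor with calls in both bulk and single cells, though in different comparisons. Sst+ against Ppy+ cells, the single-cell comparison nearest to the bulk one, was not called for Sstr2 (adjusted p = 0.278, edgeR). The window of 250 bases (chr11:113619077-113619326, + strand) overlaps no annotated exon. Capitals mark a match to TGACGTCA, the cAMP response element, which reads the same on both strands and holds the shorter motif TGACG on each strand.
Sstr2 upstream: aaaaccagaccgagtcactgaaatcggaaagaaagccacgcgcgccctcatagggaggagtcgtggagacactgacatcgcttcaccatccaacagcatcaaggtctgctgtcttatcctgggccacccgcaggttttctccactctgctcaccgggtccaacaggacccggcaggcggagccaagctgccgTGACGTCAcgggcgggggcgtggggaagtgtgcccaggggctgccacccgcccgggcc

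Of 8 such windows of 7 receptors, 1 held TGACGTCA and 2 held TGACG on either strand, the other being 1 of the 2 Sstr3 windows, which lies within the annotated gene and overlaps its annotated exons over all of its 250 bases. Over all 32851 promoter windows of that length, 1.55% held TGACGTCA and 17.8% held TGACG. A match describes letters and no binding was measured. Sstr1 and Sstr5 were not searched.

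**Figure D4:**
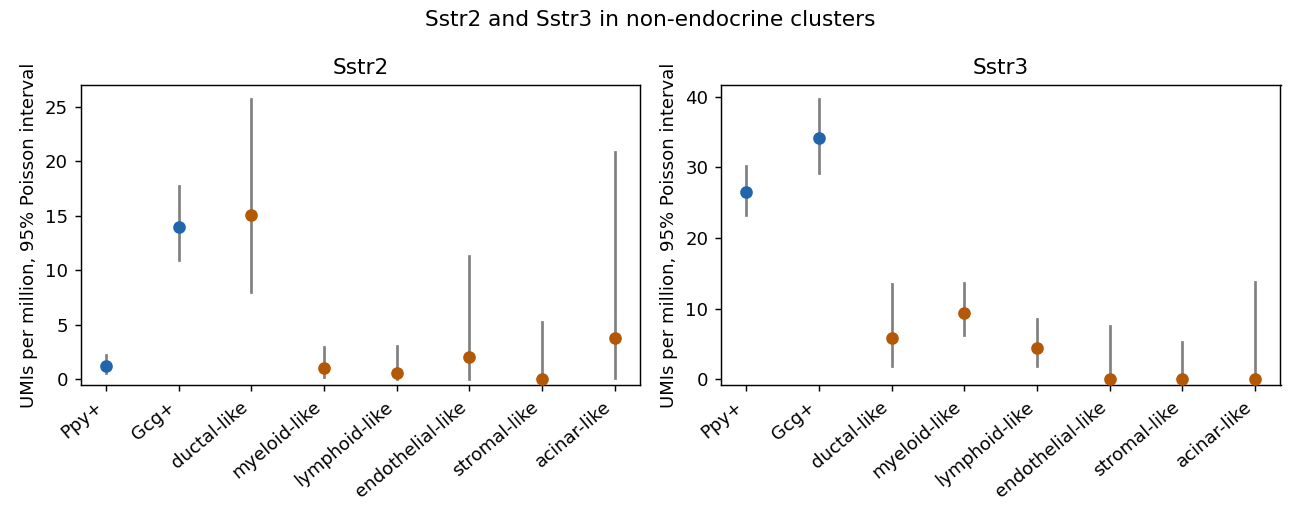
Points are CPM of all UMIs of Sstr2 (left) and Sstr3 (right) in Ppy+ and Gcg+ cells (blue) and in clusters of other cell types (orange), pooled over both experiments, with 95% Poisson intervals for counting error. Sstr2 in the ductal-like cluster (15.03) is near that of Gcg+ cells (13.99). With YFP+ and YFP- libraries pooled, Sstr3 is lower in each of these clusters than in Ppy+ cells (26.6). Myeloid-like cells of the YFP+ libraries alone were above that level, a split not drawn here.

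The clusters led by markers of other cell types give the background of both receptors. Sstr3 stood at 0 in stromal-like, endothelial-like and acinar-like cells, at 4.35 CPM of all UMIs in lymphoid-like, 5.78 in ductal-like and 9.38 in myeloid-like cells. These levels, pooled over YFP+ and YFP- libraries, were below the 26.6 CPM of Ppy+ cells. Myeloid-like cells of the YFP+ libraries alone were above it, with Ppy high as well, as given among the flagged results. Sstr2 stood at 15.03 CPM (95% Poisson interval 8.002 to 25.7) in 132 ductal-like cells and at 0 to 3.73 CPM in the 5 other clusters named by their markers. In Ppy+ cells the Sstr2 mean over both experiments, from 11 UMIs, was 1.18 CPM of all UMIs, a value inside this range of 0 to 3.73 CPM. Each of the 5 clusters held no more than 3 Sstr2 UMIs. Their range is therefore set by counting error and cannot place the Ppy+ level against a background. In a cluster of 29 cells led by Tff3 and Fcgbp, 1 UMI each of Sstr2 and Sstr5 was found.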

How the data were processed

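The authors aligned bulk reads with STAR 2.7.2b to GRCm38.p6, and made gene counts with HTSeq 0.9.1 (union). They counted UMIs with Cell Ranger on mm10 with YFP and rtTA added. Both kinds of file hold deposited raw counts. 6 bulk columns of other samples were not used.

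Bulk counts were compared with edgeR 4.0.16, after a filter at a mean of 5 counts. Doublets were marked with Scrublet, which marked 8 cells and so hardly contributed, and a nearest-neighbour caller at a set rate (120 cells), and cells were clustered with Seurat 5.3.0. Hormone-positive cells passed a density minimum, and monohormonal cells had to lie in a cluster with that hormone alone high. Sums per class and experiment were compared with edgeR. The SE of an edgeR fold change is its absolute log2 value over the square root of the F statistic of its test. The 95% intervals of fold changes use this SE and a t distribution on the residual degrees of freedom. Since edgeR's p-values use other degrees of freedom, interval and p-value can differ. The tests were tried on simulated data with fewer changed genes than were called here. In bulk these also had less spread than the real libraries (common dispersion 0.145). The trial therefore does not show how the tests perform on these data. RPKM used merged exon lengths. Named pathway genes were the ligands and those with the largest called changes, up to 10 in bulk and 5 per class comparison. Dpp4, Gnao1 and Slc39a11, and all genes named for bihormonal cells, fell outside this rule and were named after their values were seen. Members and lists were chosen with earlier results of these data known. Poisson intervals and limits from 3 counts cover counting error at 95%. Alternatives covered scaling, filters, thresholds, classes, doublets, depth, blocks and left-out libraries.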

Additional observations from a re-analysis of the deposited data

Results flagged for a closer look

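Sstr5 in γ-cell libraries stood apart in library 3 (0.688 CPM, 15 reads), where the gap to the next library made up 0.954 of the range of the group. Npy1r was likewise set apart by library 3 alone (0.0918 CPM, 2 reads), with a gap of 1 times the range, since the other 4 libraries were at 0. With all other libraries at 0 any single count gives that value, so it carries no information on Npy1r. Chance sets apart about 1 in 20 groups of measured values, which does not apply to groups made mostly of zeros (Sstr5 was at 0 in 3 of the 5). Library 3 decides both γ means, and without it Sstr5 has 1 read and Npy1r none in the γ group.

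In cells outside the hormone classes, Sstr2 had 13 UMIs in the ductal-like cluster, 7 in experiment 1 and 6 in experiment 2. Sstr3 had 5 UMIs there, 8 in the lymphoid-like and 28 in the myeloid-like cluster, and Npy1r had 5 in the endothelial-like cluster, 3 and 2 by experiment (10.1 CPM of all UMIs). Each is above the 3 UMIs that a count of 0 allows. Of the 28 Sstr3 UMIs of myeloid-like cells, 20 were in 53 cells of the YFP+ libraries (37.8 CPM) and 8 in 438 cells of the YFP- libraries (3.26 CPM). Ppy moved the same way, at 145400 and 684 CPM of all UMIs in these cells, and the part of hormone-cell RNA in the Sstr3 value was not tested. Of the 13 Sstr2 UMIs of ductal-like cells, 10 were in 122 cells of the YFP- libraries (12.7 CPM), where Ppy was at 217 CPM, and 3 in 10 cells of the YFP+ libraries (39.1 CPM), where Ppy was at 84880 CPM.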

How the results depend on the processing

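The number of receptors called in bulk was 2 under 16 alternatives and fell to 1 with upper-quartile normalization. It was 2 to 2 with each library left out. Same-numbered γ and δ libraries did not deviate together (correlations of -0.0952, 0.0678 and -0.274), so their numbers show no pairing; with the replicate block 2 receptors were called and Sstr1 turned to -0.41. Of 12 monohormonal comparisons of a receptor, 4 were called. This was 7 without a fold threshold and 0 with cells thinned to 1000 UMIs, where Sstr2 no longer passed the filter. Calls over all genes moved the same way. Without a fold threshold they went from 2766 to 3834 of 10327 in Ins2+ against Ppy+ cells. They went from 2313 to 3071 in Gcg+ against Ins2+ cells and from 1250 to 1427 in Sst+ against Gcg+ cells. Thinning left 491 called of 3520 genes in Ins2+ against Ppy+ cells. Of 6 bihormonal comparisons of a receptor 1 was called. This was 0 when thinned, with DESeq2, with no replicate block (no paired term for the experiment) and with the library as a block. The library block was chosen after seeing the data, together with classes drawn also from mixed clusters. Over all genes, calls in Ppy+Gcg+ against Ppy+ cells went from 332 of 10327 to 155 with DESeq2 and 107 with no block. They were 97 of 3520 when thinned and 293 of 9072 with the library block. With 1 experiment left out there is no test, and these uncalled values changed sign: without experiment 2, Sstr3 in Sst+ against Ins2+ (-0.135), Ppy+Gcg+ against Ppy+ (0.00806) and Ppy+Sst+ against Ppy+ cells (0.0127); without experiment 1, Sstr3 (0.27) and Sstr2 (from -0.74 to 1.59) in Ppy+Ins2+ against Ppy+ cells. The cause of these losses was not tested except for thinning. No called value of a receptor changed direction under these alternatives. Under the other alternatives, uncalled Sstr3 log2 values near 0 changed sign: Gcg+ against Ppy+ to 0.21 with the library block; Sst+ against Ins2+ to -0.33 when thinned; Ppy+Gcg+ against Ppy+ to 0.00328 with thresholds alone, 0.0204 with doublets kept as well, 0.156 when thinned and 0.0262 with the library block; Ppy+Sst+ against Ppy+ to 0.00907 with DESeq2 size factors, 0.00863 with DESeq2, 0.00267 with hormone genes left out, 0.00614 with thresholds alone, 0.0229 with doublets kept as well, 0.0113 with no block and 0.0579 with the library block; and Ppy+Ins2+ against Ppy+ to 0.00505 with DESeq2 and 0.127 with the library block. Receptors at a few reads are limited by depth.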
